A study of Mus musculus with 6 samples.

Results

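The 10 genes examined here encode chaperones and folding factors of the endoplasmic reticulum (ER) and the transcription factor that helps to control them: Hspa5, Xbp1, Dnajb9, Sdf2l1, Pdia4, Hyou1, Herpud1, Creld2, Manf and Calr. They were chosen by symbol, each symbol matched 1 of the 55450 genes counted, and all 10 passed the filter on low counts that left 21237 genes to be tested. The data are long RNA sequencing of whole mouse brain from 3 animals lacking TRMT1L (KO) and 3 wild-type animals (WT), described as biological triplicates. Total RNA was size-selected to molecules over 200 bp before library preparation with an Illumina TruSeq total RNA kit. Strain, sex, age and the allele of the KO are not given in the sources used here.

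Proteins that enter the ER are folded by chaperones, and an excess of unfolded protein there is sensed by IRE1 (gene Ern1), ATF6 and PERK (gene Eif2ak3). IRE1 cuts a short stretch out of Xbp1 messenger RNA, which shifts the reading frame and yields the active factor XBP1s, while ATF6 is cut by proteases to release a factor that turns on chaperone genes. PERK phosphorylates the translation factor eIF2 alpha, which raises ATF4 protein and its targets, and since other kinases phosphorylate the same factor, ATF4 targets can also rise without ER stress. Chaperone and XBP1 target genes are therefore read beside ATF4 targets to describe which branch is active.

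In these data 9 of the 10 genes were highest in the same single library, KO library 2, where 21.8% of all genes tested were, and the other 2 KO libraries lay close to WT. After adjustment over all genes 0 of the 10 passed in edgeR with the filter on low counts, where 0.00942% of all genes did. Without that filter 9 passed, where 0.8% of all genes did, and 0 when KO library 2 was also left out, where 0.523% did. Dnajb9 did not share the pattern. Of 27 ATF4 and CHOP targets, 0 passed after adjustment in edgeR, 26 had a log2 fold change above 0, where 50.1% of all genes did, and 19 were highest in a different animal, KO library 3, where 18.7% of all genes were. Without the filter 11 of the 29 genes of that list passed, Atf4 itself among them, where 0.8% of all genes did. The number was 4 when KO library 3 was also left out, where 0.6% did.

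The control sequences of these genes are shown because 9 of the 10 had their highest value in the same library. The ER stress response element (ERSE, the letters CCAAT, then 9 bases of any kind, then CCACG) was searched on both strands of RefSeq promoter windows (assembly GRCm38.p6, 250 bases before to 50 after each start) for the 8 members that the table lists; Hyou1 and Manf have no entry. It was present in 3 of these 8, Hspa5, Creld2 and Calr, and in 37 of 27025 genes in the table (0.137%). The second form of the element (ERSE-II, ATTGG, then 1 base, then CCACG) was found in Herpud1 and in 0.0444% of genes. TGACGTG, the core of the unfolded protein response element that XBP1 binds, was found in Hspa5 and in 2.22% of genes. TTGCATCA, a form of the C/EBP-ATF response element that ATF4 uses, was found in Herpud1 and in 1.03% of genes. The search allowed no mismatch, and a match is a description of the letters only.

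The stretches that hold these matches follow 5′ to 3′ on the strand of each gene, with the matched letters in capitals. In the Hspa5 stretch (chr2:34771913-34772063, plus strand) TGACGTG comes first and the ERSE second. In the Herpud1 stretch (chr8:94386297-94386407, plus strand) TTGCATCA comes first and ERSE-II second. The stretches of Creld2 (chr15:88819500-88819558, plus strand) and Calr (chr8:84847055-84847113, minus strand) each hold an ERSE that reads on the opposite strand.
Hspa5: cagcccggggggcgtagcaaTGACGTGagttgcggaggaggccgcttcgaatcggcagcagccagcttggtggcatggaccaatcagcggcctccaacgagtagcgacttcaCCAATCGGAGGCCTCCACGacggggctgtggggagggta
Herpud1: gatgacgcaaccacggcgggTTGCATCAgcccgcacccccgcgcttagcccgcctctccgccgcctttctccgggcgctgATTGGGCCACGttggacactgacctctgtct
Creld2: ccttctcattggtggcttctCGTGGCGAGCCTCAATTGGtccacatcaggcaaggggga
Calr: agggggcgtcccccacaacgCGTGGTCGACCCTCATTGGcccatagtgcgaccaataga

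The stretch that IRE1 removes from Xbp1 is 26 bases long and lies in exon 4 of 5 of transcript Xbp1-201 (GRCm38, chr11:5524282-5524307, plus strand). It is shown in capitals with 20 bases on either side, as read from the GENCODE M21 transcript. Because both forms of the RNA are counted under the same gene, the Xbp1 counts given here do not separate the spliced from the unspliced form.
Xbp1: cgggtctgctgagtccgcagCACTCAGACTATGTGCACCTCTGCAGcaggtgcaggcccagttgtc

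Counts in genes on the strand used ranged from 31201119 to 36145961 per library, and KO library 2, with 34221660, lay inside that range. Trmt1l, the targeted gene, had 1034 to 1279 counts in WT and 93 to 106 in KO, so all 6 libraries carried it on the side of their labels (log2 fold change -3.58, SE 0.0813, edgeR adjusted p = 6.95e-10). KO library 2 held 29963 genes with at least 1 count, the fewest of the 6. Its value was at least 1.25 times that of every other library for 1.91% of the genes tested, where the other 5 libraries reached this for 0.659% to 1.5%; this threshold was chosen after the values were seen. Markers of neurons, astrocytes, oligodendrocytes and microglia were well above 0 in every library, as the brain label implies. In bulk tissue a change in the number of cells of a type and a change in RNA per cell cannot be told apart.

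Levels are in CPM, a gene's counts relative to a library size adjusted with TMM factors, and, where genes are compared with each other, as RPKM, CPM per 1000 bases of annotated exon. In WT brain Calr was the most abundant member, at 87.4 ± 9.87 RPKM, followed by Hspa5 at 37.3 ± 4.36 (SD, n = 3). Pdia4 (18.0 ± 1.21), Hyou1 (16.2 ± 0.128), Herpud1 (16.2 ± 0.502), Xbp1 (15.1 ± 0.946) and Dnajb9 (14.2 ± 0.471) formed a middle group on the same RPKM scale. In that group Pdia4 lay above Hyou1 by more than their SDs, while Hyou1 and Herpud1, Herpud1 and Xbp1, and Xbp1 and Dnajb9 overlapped within them. Manf (6.01 ± 0.621 RPKM) and Creld2 (5.37 ± 0.412 RPKM) also overlapped, and Sdf2l1 was lowest at 2.63 ± 0.414 RPKM.

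**Figure D1:**
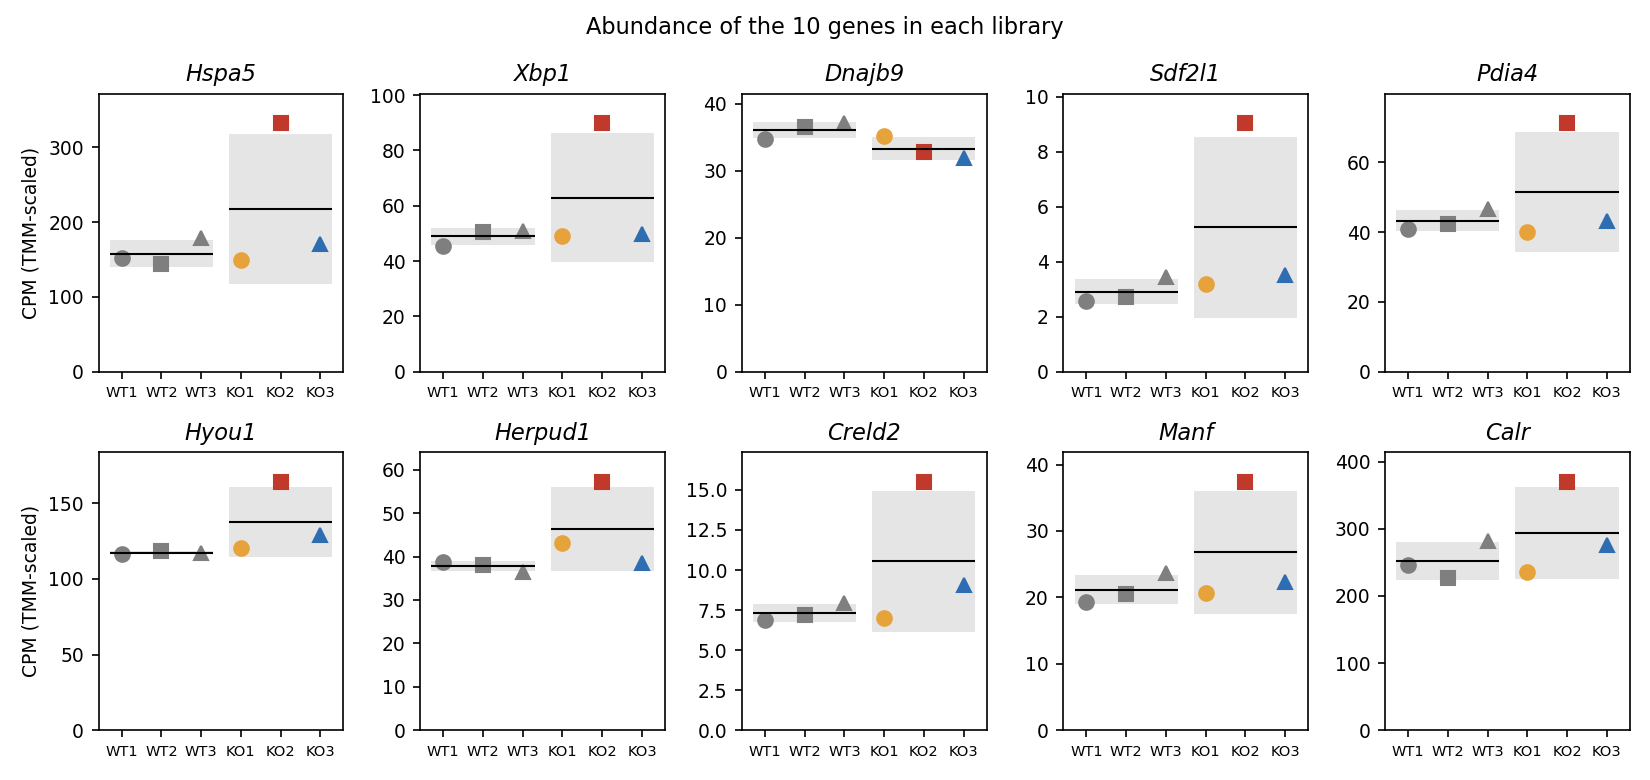
Abundance in CPM of the 10 genes, 1 panel per gene with its own axis from 0. Each symbol is 1 library, lines are group means over 3 libraries and grey bands are the mean ± SD. KO library 2 (red square) is the highest of the 6 in every panel but that of Dnajb9, where it lies at 32.8 CPM.

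Among the chaperones of the Hsp70 system, Hspa5 (ENSMUSG00000026864.13, chr2:34771970-34777547, plus strand), which encodes BiP, the main Hsp70 of the ER, had 151, 143 and 179 CPM in WT libraries 1 to 3. It had 149, 332 and 171 CPM in KO libraries 1 to 3. KO library 2 was thus 2.10 times the WT mean, while KO libraries 1 and 3 lay within the WT range. The log2 fold change over all 6 libraries was 0.46 (SE 0.227), which did not pass over all genes (edgeR adjusted p = 0.643), and without KO library 2 it was 0.02 (SE 0.0865).

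Hyou1 (ENSMUSG00000032115.14, chr9:44379490-44392369, plus strand) encodes a large Hsp70-like chaperone that also exchanges nucleotide on BiP. Its values were 116, 118 and 117 CPM in WT and 120, 164 and 129 CPM in KO libraries 1 to 3. It was the only member whose 3 KO libraries all lay above all 3 WT libraries, against 7.46% of all genes tested that were separated in this direction and 14.4% in either, and this separation was not kept after a correction for GC content. Hyou1 differed by a log2 fold change of 0.23 (SE 0.0914), which did not pass (edgeR adjusted p = 0.606). It was 0.08 (SE 0.0489) without KO library 2.

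Sdf2l1 (ENSMUSG00000022769.9, chr16:17130138-17132383, minus strand) encodes a small ER protein that works with BiP and its J-domain partner. It had the fewest counts of the 10, from 85 in WT library 2 to 304 in KO library 2. Its values were 2.58, 2.71 and 3.43 CPM in WT and 3.19, 9.03 and 3.51 CPM in KO. KO library 2 was 3.10 times the WT mean, the largest ratio among the 10 genes, and KO library 1 lay inside the WT range. For Sdf2l1 the log2 fold change reached 0.85 (SE 0.338) without passing (edgeR adjusted p = 0.606), and it was 0.21 (SE 0.164) without KO library 2.

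Dnajb9 (ENSMUSG00000014905.4, chr12:44205559-44210326, minus strand), also called ERdj4, is a J-domain co-chaperone of BiP that is regarded as a target of XBP1s and holds IRE1 in check. Its values were 34.8, 36.5 and 37.1 CPM in WT and 35.1, 32.8 and 31.8 CPM in KO. KO library 2 held 0.908 times the WT mean of Dnajb9, and the groups overlapped through KO library 1. The log2 fold change was -0.12 (SE 0.0593, edgeR adjusted p = 0.650), close to the -0.11 (SE 0.0654) without KO library 2, and -0.06 with GC correction.

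Of the enzymes and lectins that fold glycoproteins and form disulfide bonds, Pdia4 (ENSMUSG00000025823.9, chr6:47796141-47813430, minus strand), a protein disulfide isomerase, had 40.9, 42.3 and 46.5 CPM in WT and 40.0, 71.1 and 43.1 CPM in KO. Calr (ENSMUSG00000003814.8, chr8:84841850-84846934, minus strand), the calcium-binding lectin chaperone calreticulin, had 247, 226 and 283 CPM in WT and 236, 370 and 276 CPM in KO. For both genes KO library 2 was alone above the WT range, except that KO library 1 lay just below the lowest WT value of Pdia4. On the log2 scale the fold change was 0.25 (SE 0.169) for Pdia4 and 0.22 (SE 0.132) for Calr (edgeR adjusted p = 0.745 and 0.705). Without KO library 2, that of Pdia4 changed sign to -0.06 (SE 0.0688) and that of Calr was 0.02 (SE 0.0880).

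Creld2 (ENSMUSG00000023272.4, chr15:88819646-88826683, plus strand) and Manf (ENSMUSG00000032575.16, chr9:106838312-106891979, minus strand) encode proteins that are induced by ER stress and can be secreted; MANF also has trophic effects on neurons. Creld2 had 6.87, 7.18 and 7.96 CPM in WT and 7.02, 15.5 and 9.07 CPM in KO, so that KO libraries 2 and 3 lay above WT and KO library 1 among them. Manf had 19.4, 20.5 and 23.6 CPM in WT and 20.6, 37.4 and 22.3 CPM in KO, where KO library 2 alone was above WT. Over all libraries the log2 fold change was 0.52 (SE 0.227) for Creld2 and 0.34 (SE 0.182) for Manf (edgeR adjusted p = 0.622 and 0.671). Without KO library 2 the values were 0.14 (SE 0.129) for Creld2 and 0.02 (SE 0.0892) for Manf. Of the 3524 bp of Manf exons, 14 bp are shared with Rbm15b on the same strand, where reads are left out of the counts.

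Herpud1 (ENSMUSG00000031770.16, chr8:94386438-94395377, plus strand) encodes a membrane protein of ER-associated degradation, the route by which misfolded proteins leave the ER for the proteasome. It had 38.8, 38.0 and 36.5 CPM in WT and 43.2, 57.2 and 38.6 CPM in KO. KO libraries 1 and 2 lay above WT and KO library 3 inside its range. Herpud1 had a fold change, on the log2 scale, of 0.29 (SE 0.114, edgeR adjusted p = 0.600), and it was 0.11 (SE 0.0654) without KO library 2. Its promoter is the one shown above that holds both an ERSE-II and the letters of a C/EBP-ATF element.

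Xbp1 (ENSMUSG00000020484.18, chr11:5520659-5525893, plus strand), the transcription factor whose RNA is spliced by IRE1, had 45.5, 50.7 and 51.0 CPM in WT and 49.0, 89.8 and 49.9 CPM in KO. KO library 2 was 1.83 times the WT mean, and KO libraries 1 and 3 lay inside the WT range. Over 6 libraries Xbp1 differed by 0.36 on the log2 scale (SE 0.184, edgeR adjusted p = 0.655), and by 0.01 (SE 0.0628) without KO library 2.

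Of the 10 genes, 0 passed at 0.05 after adjustment in the quasi-likelihood test of edgeR, where 0.00942% of all genes tested did. Without adjustment 4 passed at 0.05, all higher in KO (Sdf2l1, Hyou1, Herpud1 and Creld2), where 4.54% of all genes tested did so and 7.92% passed in either direction. The log2 fold change was above 0 for 9 of 10, against 50.1% of all genes, and its median was 0.32, against 0.00013 for all genes. DESeq2 called 0 of the 4 members to which it gave an adjusted p-value, where it called 0.545% of all genes that had one, and 0 of 10 without adjustment, where 5.46% of all genes passed. In limma-voom 0 passed with adjustment, as 0.00942% of all genes did, and 2 without, as 7.68% did.

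These counts depended on which KO library was left out. Without KO library 2 the median log2 fold change of the 10 genes was 0.02, 8 were above 0, and 0 passed without adjustment, where 4.2% of all genes did so with higher values in KO and 7.23% in either direction. With adjustment 0 of the 10 passed in that fit, where 0.00918% of all genes did. Without KO library 1 all 10 passed without adjustment, 9 higher and Dnajb9 lower, where 8.58% of all genes did in either direction, and without KO library 3 the number was 7, where 8.01% of all genes did; in both fits KO library 2 made up a larger share of its group. Leaving out WT library 1, 2 or 3 left 1, 0 or 1 members, where 6.3%, 5.5% and 6.32% of all genes passed. The log2 fold change of each member except Dnajb9 was smallest in the fit without KO library 2.

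**Figure D2:**
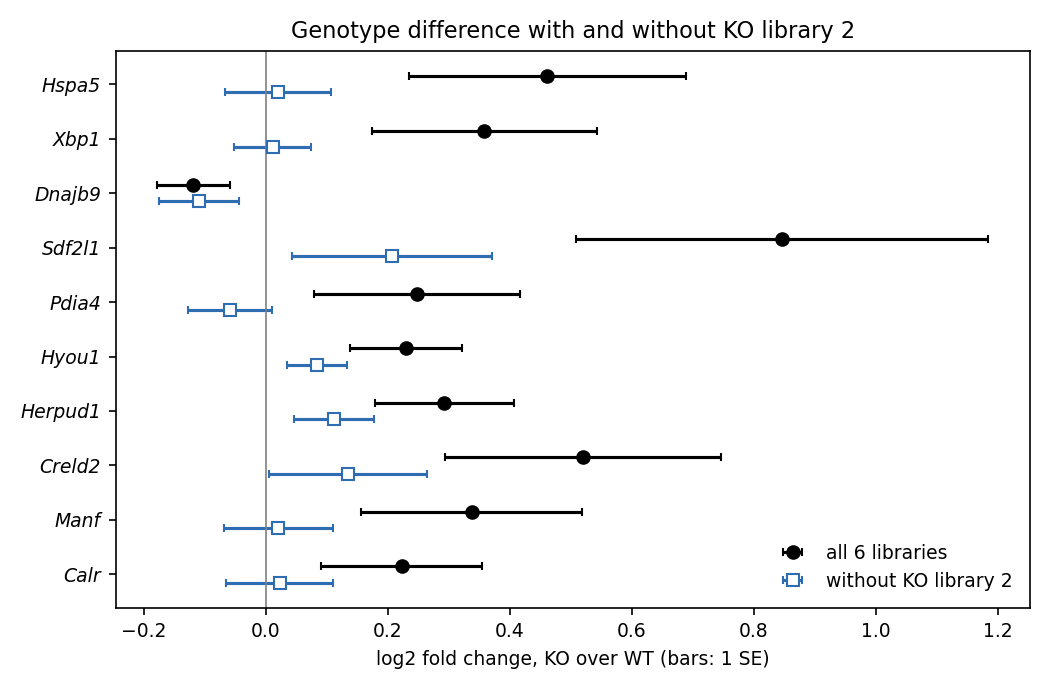
Log2 fold change of KO over WT for each gene from edgeR, with all 6 libraries (black circles) and without KO library 2 (open blue squares); bars are 1 SE. The value for Hspa5 moves from 0.46 to 0.02, and that of Dnajb9 from -0.12 to -0.11.

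The filter on low counts decided whether the members were called. When every gene with at least 1 count was kept, 9 of the 10 genes passed after adjustment in edgeR, where 0.8% of all genes did, and the smallest adjusted p-value was 9.22e-17 for Hspa5. That fit held 37245 genes, and edgeR gave all of them the spread of the common trend, with infinite prior degrees of freedom where the filtered fit had 7.53. When KO library 2 was left out of the unfiltered fit, an alternative chosen after the data were seen, 0 of the 10 genes passed, where 0.523% of all genes did, and the smallest edgeR adjusted p-value was 0.880. When KO library 3 was left out in the same way, 8 of the 10 passed, where 0.6% of all genes did.

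KO library 2 was the highest of the 6 libraries for 9 of the 10 genes, where it was the highest for 21.8% of all genes tested. In all 9 it was at least 1.25 times the next highest library, where 1.91% of all genes reached that ratio. The ratio was 2.57 for Sdf2l1, 1.86 for Hspa5, 1.76 for Xbp1, 1.71 for Creld2, 1.58 for Manf and 1.53 for Pdia4. It was 1.32 for Herpud1, 1.31 for Calr and 1.27 for Hyou1, the member nearest to the threshold, and 0.885 for Dnajb9. Among 17301 genes with a mean of at least 1 CPM, ranked by this ratio, Sdf2l1 was number 5, Hspa5 number 17, Xbp1 number 25 and Creld2 number 31. Manf was number 51, Pdia4 number 64, Herpud1 number 157, Calr number 175 and Hyou1 number 216, while Dnajb9 was number 11095. The count of 9 held under each alternative that kept all 6 libraries, among them GC correction and counting without strand. This is a description of 1 library, and nothing in the labels sets that animal apart.

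The profiles of the 9 genes over the 6 libraries were alike: Pearson's r with the mean standardised profile of the 10 lay between 0.893 for Herpud1 and 0.996 for Manf, and was -0.42 for Dnajb9. The points share libraries and the value rests on KO library 2. Each member is also part of the mean profile, which raises its r, while the genes compared next are not part of it. By the same measure, among 10638 other genes with a mean of at least 10 CPM, the most alike were Kmt2a (r = 0.998), Pde4dip (0.998), Cers6 (0.996), Slc25a37 (0.990) and Zfp236 (0.989), each over 6 libraries. Kmt2a had 442 to 460 CPM in 5 libraries and 526 CPM in KO library 2, a smaller excess than that of any of the 9 members.

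The wider set of ER genes was read from lists of other members of the same pathways. Of 19 further ER chaperones and folding enzymes, 0 passed with adjustment in edgeR and 0 without, where 7.92% of all genes did. Their median log2 fold change was 0.06, and -0.0019 without KO library 2, and 12 were highest in KO library 2, where 21.8% of all genes were. The 3 with the largest change were Pdia6, a disulfide isomerase, at 55.1 to 64.4 CPM in 5 libraries and 102 CPM in KO library 2, Dnajb11, a BiP co-chaperone, at 30.3 to 33.5 and 50.2 CPM, and Dnajc3, another BiP co-chaperone, at 56.7 to 64.4 and 84.2 CPM. Their log2 fold changes were 0.32 (SE 0.173), 0.30 (SE 0.141) and 0.19 (SE 0.111), with edgeR adjusted p-values of 0.671, 0.634 and 0.706. Without KO library 2 they were 0.01, 0.05 and 0.01. These 3 were the genes of the list that reached 1.25 times the next highest library, as 1.91% of all genes did, and Hsp90b1, the ER Hsp90, lay just below at 1.24. In the unfiltered edgeR fit Pdia6 and Dnajb11 passed after adjustment, where 0.8% of all genes did. In that fit 0 of the 19 passed without KO library 2, where 0.523% of all genes did, and the same 2 passed without KO library 3, where 0.6% did.

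Of 19 genes of ER-associated degradation, 0 passed with adjustment and 3 without in edgeR, 2 higher (Derl1 and Aup1) and 1 lower (Erlec1), where 7.92% of all genes passed in either direction. Their median log2 fold change was 0.03, and -0.01 without KO library 2. Derl3, a channel component induced by ER stress, had the largest change of this list, with 0.403 to 1.02 CPM in 5 libraries and 3.18 CPM in KO library 2. For Derl3 the fold change was 0.62 on the log2 scale (SE 0.531), did not pass (edgeR adjusted p = 0.799) and turned to -0.48 without that library. Aup1 (0.19, SE 0.0626) and Ube2g2 (0.17, SE 0.0814), a recruiter and an enzyme of ubiquitin transfer, followed, with edgeR adjusted p-values of 0.576 and 0.628. With GC correction Aup1 was at 0.10. Edem1, a lectin of the same route, had 27.6 CPM in KO library 2 and 26.5 to 30.5 CPM in the others, and is named after its values were seen. Of the 19 genes 6, among them Sel1l and Syvn1, were highest in KO library 2, where 21.8% of all genes were.

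Of 23 genes of ER translocation and export, 0 passed with adjustment and 1 without (Kdelr3, lower in KO and under 1 CPM), where 7.92% of all genes did, and the median log2 fold change was 0.02. Sec61b, a subunit of the translocon, had 4.66 to 5.56 CPM in WT and 5.64 to 6.45 CPM in KO (log2 fold change 0.24, SE 0.117, edgeR adjusted p = 0.637). Sec11c, of the signal peptidase, lay at -0.13 on the log2 scale (SE 0.0627) and Rpn1, of the oligosaccharyltransferase, at 0.11 (SE 0.0808), with edgeR adjusted p-values of 0.648 and 0.762. Rpn1 was highest in KO library 2, at 119.5 CPM against 89.9 to 105 CPM, and at 0.006 on the log2 scale without it. No gene of this list reached 1.25 times the next highest library in KO library 2.

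Of 9 sensors and proteases of the response, 0 passed with adjustment in edgeR, and without it Atf6b passed with higher and Mbtps2, a protease that cuts ATF6, with lower values, where 7.92% of all genes passed in either direction. Ern1 had 22.9 to 25.3 CPM in WT and 22.7, 26.3 and 25.7 CPM in KO libraries 1 to 3, a difference of 0.06 on the log2 scale (SE 0.0734). Eif2ak3, which encodes PERK, had 38.8 to 39.3 CPM in WT and 40.1, 42.2 and 39.6 CPM in KO, without overlap (0.06 on the log2 scale, SE 0.0524). Of the 9 genes 2 were separated with KO higher and 1 with KO lower, where 7.46% and 6.97% of all genes tested were. Atf6 had 94.1 to 104 CPM in WT and 89.6, 107 and 97.1 CPM in KO (log2 fold change -0.01, SE 0.0665). Its relative Atf6b had 32.5 to 34.4 CPM in WT and 33.6, 41.6 and 39.2 CPM in KO (0.18, SE 0.0754), a difference of 0.11 without KO library 2 and 0.08 with GC correction. Their edgeR adjusted p-values were 0.870, 0.819, 0.980 and 0.618. Among related membrane-bound factors, Creb3l1 (0.38, SE 0.200) was highest in KO library 3 at 5.84 CPM and was 0.08 without it, and Creb3l2 (0.18, SE 0.0932) was highest in KO library 2 at 26.3 CPM, and 0.06 without it, with edgeR adjusted p-values of 0.659 and 0.655.

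Active IRE1 also cuts other messenger RNAs, and 6 known substrates of this decay in mouse cells were examined. Of these 0 passed with or without adjustment in edgeR, where 7.92% of all genes passed without, and their median log2 fold change was 0.02. Without KO library 2 the median was 0.08 and 1 passed without adjustment, Pdgfrb, with a higher value (0.17, SE 0.0629), where 7.23% of all genes passed. Col6a1 (0.14, SE 0.0763), Scara3 (-0.06, SE 0.0944) and Pdgfrb (0.05, SE 0.0943) had edgeR adjusted p-values of 0.673, 0.897 and 0.921. In KO library 2 they had 66.4, 17.1 and 30.4 CPM, of which that of Pdgfrb, a gene of mural cells and fibroblasts, was the lowest of the 6 libraries. Markers of meningeal fibroblasts summed to 68.4 CPM in KO library 2 and 74.0 to 86.7 CPM in the others, and those of endothelium and mural cells to 245.2 CPM and 246.0 to 264.6 CPM. The part of these cells in the Pdgfrb value was not tested.

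Targets of ATF4 and of CHOP (gene Ddit3), the factors downstream of PERK, were set beside the ER genes. Of 29 genes listed, 27 passed the filter on low counts, and of these 0 passed with adjustment in edgeR and 19 without, 18 higher and 1 lower (Vldlr), where 4.54% of all genes were higher and 7.92% passed in either direction. Their median log2 fold change was 0.29, and 26 of 27 were above 0. KO library 2 was the highest for 4 of the 27, where it was for 21.8% of all genes tested, and KO library 3 for 19, where it was for 18.7% of all genes. DESeq2 called 1 of the 9 targets to which it gave an adjusted p-value, Slc7a5, an amino acid transporter (DESeq2 adjusted p = 0.00157). Of all genes that had an adjusted p-value it called 0.545%. In the unfiltered edgeR fit 11 of 29 passed after adjustment, all higher in KO, where 0.8% of all genes passed. That fit gave every gene the spread of the common trend. The 11 included Atf4 itself and Gdf15, which the filter had left out, with 45 counts in KO library 3 and 0 to 5 in the others. In the unfiltered fit the number was 15 without KO library 2, where 0.523% of all genes passed, and 4 without KO library 3, where 0.6% did. In the filtered fit without KO library 2 the median was 0.26 and 18 passed without adjustment with higher values, where 4.2% of all genes did. Without KO library 3 it was 0.22 and 9 passed, where 4.42% of all genes did.

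Among ATF4 targets with a mean of at least 1 CPM, the largest changes were in Eif4ebp1, a translation inhibitor, Nupr1, a stress-induced nuclear protein, and Atf5, a related transcription factor. Nupr1 had 2.72, 3.38 and 3.25 CPM in WT and 3.91, 3.80 and 7.75 CPM in KO, and the groups did not overlap. Of the 27 genes 13 were separated with KO higher and 1 with KO lower, where 7.46% and 6.97% of all genes tested were. Atf5 had 7.997, 8.10 and 11.2 CPM in WT and 10.7, 10.5 and 21.7 CPM in KO. Eif4ebp1 had 0.907, 1.53 and 1.22 CPM in WT and 1.70, 1.22 and 3.18 CPM in KO. For all 3 genes KO library 3 was the highest, and for Atf5 and Eif4ebp1 KO library 2 lay inside the WT range. Their log2 fold changes were 0.73 (SE 0.249), 0.66 (SE 0.246) and 0.75 (SE 0.326), with edgeR adjusted p-values of 0.579, 0.589 and 0.622. Without KO library 3 they were 0.31, 0.23 and 0.27. Below that level, and named after their values were seen, Trib3, an inhibitor of ATF4 signalling, had 0.456 to 0.742 CPM in WT and 0.604, 0.832 and 2.85 CPM in KO, and Atf3, a stress-induced factor, 0.330 to 0.542 CPM in WT and 0.921, 0.535 and 1.05 CPM in KO. Their log2 fold changes were 1.32 (SE 0.519), which was 0.32 without KO library 3, and 0.93 (SE 0.317), with edgeR adjusted p-values of 0.600 and 0.579.

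Per library, the median deviation from the WT mean on the log2(CPM + 0.5) scale was -0.04, 0.76 and 0.10 in KO libraries 1 to 3 for the 10 ER genes and 0.19, 0.14 and 0.42 for the ATF4 and CHOP targets. In the WT libraries it lay between -0.07 and 0.11 for the ER genes and between -0.02 and 0.05 for the ATF4 targets. Atf4 RNA itself was 75.6, 65.1 and 64.9 CPM in KO and 56.1 to 61.2 CPM in WT, so KO library 2 did not stand out for it. Ddit3 was 8.12, 10.9 and 10.6 CPM in KO and 7.11 to 8.44 CPM in WT. Both genes are named after their values were seen, and the 2 lists share all 6 libraries.

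**Figure D3:**
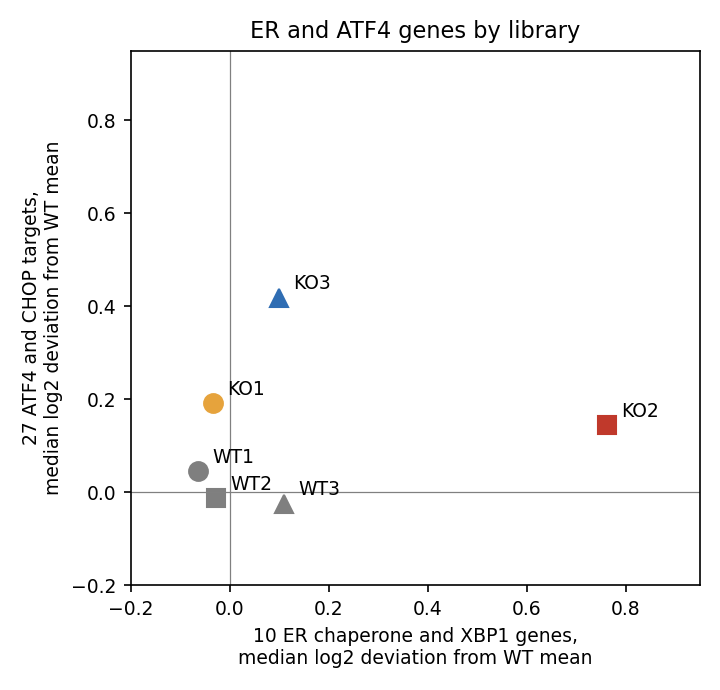
Median log2 deviation from the WT mean of the 10 ER genes (x axis) and of the 27 ATF4 and CHOP targets (y axis), 1 symbol per library. KO library 2 lies at 0.76 on the ER axis and 0.14 on the ATF4 axis, and KO library 3 at 0.10 and 0.42.

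Other transcripts moved in KO library 2 along with the ER genes. A list of 14 genes known to respond to glucocorticoids, drawn up after the values of this library were seen, was highest there for 13 genes, where 21.8% of all genes were, and its summed level was 964 CPM in KO library 2 against 458 to 626 CPM in the other 5. Fkbp5, a chaperone of the glucocorticoid receptor, had 46.3 CPM in KO library 2 and 20.003 to 24.1 CPM elsewhere. Plin4, a lipid droplet protein, had 36.4 CPM there and 2.40 to 5.12 CPM elsewhere. The median of this list was also raised in KO library 1, by 0.40 on the log2 scale, against 1.14 in KO library 2. For the 10 ER genes the median in KO library 1 was -0.04, with Herpud1 and Hyou1 above the WT range and Pdia4 below it. The part of the glucocorticoid-responsive genes in the ER gene values was not tested.

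Choroid plexus epithelium, a secretory tissue rich in ER, was read from 10 markers, all detected. Their summed level was 470, 462 and 396 CPM in KO libraries 1 to 3 and 334 to 390 CPM in WT. The 10 ER genes together summed to 703, 1179 and 774 CPM in KO libraries 1 to 3 and 686 to 785 CPM in WT. The part of choroid plexus content in the ER gene values was not tested. Blood markers summed to 98.3 CPM in KO library 2, the lowest of the 6 libraries, and to 109 to 247 CPM in the others. Neuron markers summed to 4729 CPM there and 4490 to 4840 CPM elsewhere, astrocyte markers to 1138 CPM and 1088 to 1248 CPM, oligodendrocyte markers to 3994 CPM and 3627 to 4637 CPM, and microglia markers to 220 CPM and 223 to 281 CPM. KO library 3, where most ATF4 targets peaked, had the lowest oligodendrocyte sum, 3627 CPM, and the highest astrocyte sum, 1248 CPM, in which Gfap stood at 248 CPM against 115 to 140 CPM in the other 5 libraries. The part of these cell types in the ATF4 target values was not tested.

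**Figure D4:**
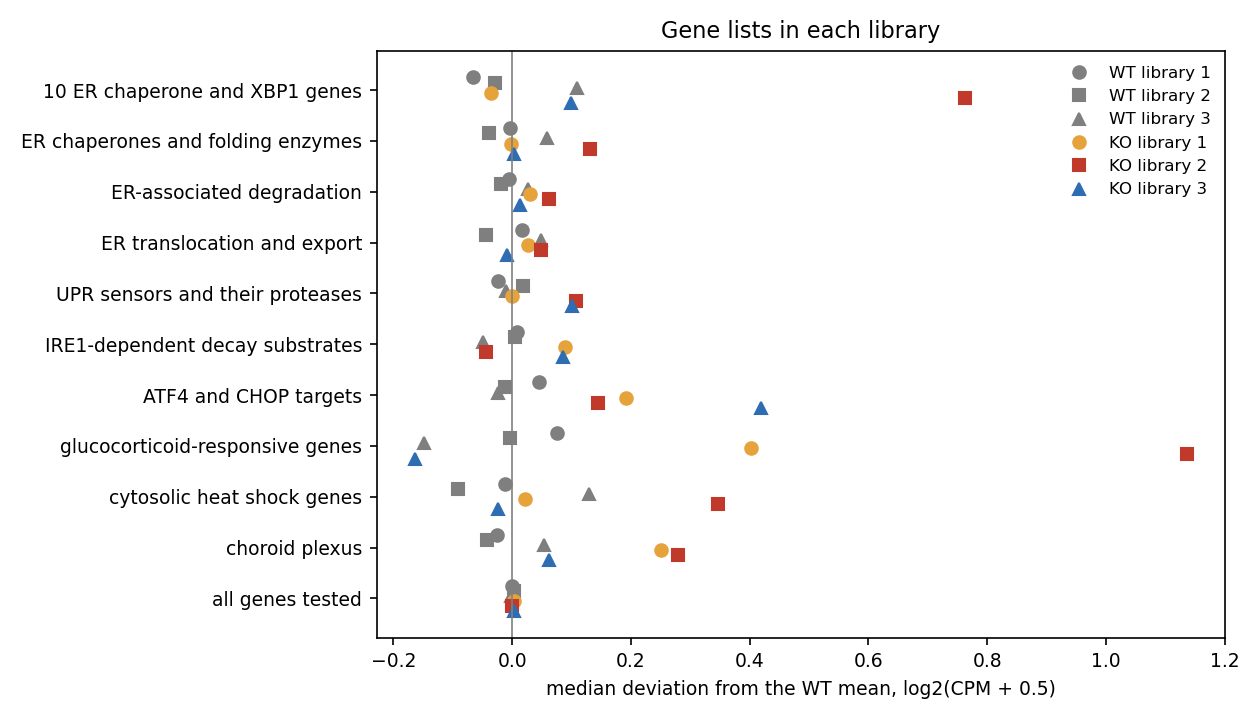
Median deviation of each gene list from its WT mean, on the log2(CPM + 0.5) scale, 1 symbol per library. The glucocorticoid and heat shock lists were drawn up after the values were seen. KO library 2 (red squares) lies at 0.76 for the 10 ER genes and at 1.14 for glucocorticoid-responsive genes, and KO library 3 (blue triangles) at 0.42 for ATF4 and CHOP targets.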

How the data were processed

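Long RNA of whole brain was measured in 6 libraries (3 KO, 3 WT). The authors deposited raw whole-number counts per gene, 1 table per library in STAR's layout; cutadapt 1.9.1 and STAR 2.7.0f are named per the submitters' processing notes. The build and annotation are not given in the sources used here, but the 55450 gene identifiers are those of GENCODE M21 (GRCm38), from which names, positions and exon lengths were taken. The last column, with at least 94.6% of stranded counts in each library, was used; a stranded column had to hold 80%. The 4 rows that name no gene were left out; reads in no gene made up 48.6% to 52.2% of mapped reads.

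In R 4.3.3, edgeR 4.0.16 (filterByExpr, TMM, quasi-likelihood test, Benjamini-Hochberg adjustment over all genes tested, threshold 0.05) tested genotype over all 6 libraries. SE is the size of the log2 fold change divided by the square root of F. No pair of replicates agreed within sampling noise (chi-square per degree of freedom 4.40 to 9.50). Apart from the unfiltered edgeR fits, the p-values measure the spread between these animals only. In the unfiltered fit of all 6 libraries they rest on the common trend, not on each gene's own spread. The other fits used DESeq2 1.42.0 and limma 3.58.1 (voom).

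The members and lists were chosen with earlier results of these data known. Named were the 10 members, Trmt1l, the sensors Ern1, Eif2ak3, Atf6 and Atf6b, the 3 genes of each pathway list with the largest absolute log2 fold change at a mean of at least 1 CPM, and the 5 genes most like the members in profile. Other names were chosen after their values were seen. Protein sequences were not used here.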

Additional observations from a re-analysis of the deposited data

How the results depend on the processing

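The median log2 fold change of the 10 genes lay between 0.25 and 0.32 under all alternatives that kept the 6 libraries, and between 0.02, without KO library 2, and 0.45, without KO library 1, when 1 library was left out; in the unfiltered fit it was 0.03 without KO library 2 and 0.43 without KO library 3, both added after seeing the data. Hyou1 alone had separated groups, and with GC correction, with or without the replicate block, 0 members did. With 1 library left out the number was between 1 and 4, but groups of fewer libraries separate more easily. The share of all genes with separated groups was not computed for these fits. Over all genes 2 changed, against 298 without a filter on low counts, 192 and 219 in the unfiltered fit without KO library 2 and without KO library 3, 26 in the DESeq2 Wald test, which gave 6 members no adjusted p-value, and 2 to 5 when 1 library was left out. The cause of the DESeq2 difference was not tested. The replicate block gave 4 genes and 0 of the 10 members with adjustment. Without adjustment 5 members passed with the block, 1 with GC correction and 3 with both. The share of all genes passing without adjustment was not computed for these fits. Same-numbered libraries correlated at 0.0589, -0.0653 and -0.0660 in their deviations, and 2 of 6 libraries correlated best with their own number. These values show no pairing of the animals by number, and they cannot exclude one. Among the scalings, total counts moved the median of all genes most, to -0.0099. With 85 to 304 counts, Sdf2l1 is the member whose values depth limits most.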

Other observations

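Of 10 cytosolic heat shock genes, listed after the values were seen, 9 were highest in KO library 2, where 21.8% of all genes tested were. The 3 that reached 1.25 times the next highest library there, as 1.91% of all genes did, were Hspb1, Hspa1b and Dnajb1. Hspb1, a small heat shock protein, had 6.24 CPM in KO library 2 and 1.88 to 3.54 CPM in the other 5. Hspa8, the constitutive cytosolic Hsp70, had 1715 CPM there and 1268 to 1483 CPM elsewhere.

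Clock genes were listed in the same way. Dbp, an output gene of the clock, had 50.02 CPM in WT library 3 and 50.3 CPM in KO library 3, and 68.1 to 81.2 CPM in the other 4 libraries. Arntl, which encodes the activator BMAL1 and peaks at the opposite time of day, had 56.3 CPM in WT library 3 and 60.3 CPM in KO library 3, and 39.9 to 46.3 CPM in the others. Per2, which responds to the clock and to glucocorticoids, had 89.8 CPM in KO library 2 and 36.3 to 53.7 CPM elsewhere. The labels give no time of collection.

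Gdf15, a secreted stress factor that the filter on low counts left out, had 45 counts in KO library 3 and 0 to 5 in the other libraries. Fgf21, another such factor, had 10 counts in KO library 3 and 0 in the other 5. Neither gene had a count in KO library 2, where the ER genes were highest; a count of 0 there allows up to 3.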
